A study of Mus musculus with 19 samples.

Results

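The reads described here came from the mRNAs of 7 genes that round and elongating spermatids express: the protamine genes Prm1, Prm2 and Prm3, the transition protein genes Tnp1 and Tnp2, Smcp (sperm mitochondria-associated cysteine-rich protein) and Odf1 (outer dense fiber of sperm tails 1). A read was taken when it was at least 20 nt long, matched an annotated transcript of one of these genes exactly and on the sense strand, and matched no small RNA gene. In the 19 sperm libraries, 155819 reads met this rule, in 14352 distinct sequences and with 4050 to 12633 reads per library. They made up 0.520% of the 29991037 reads assigned to the 21951 protein-coding genes of the annotation. By gene, Smcp had 81959 reads, Odf1 44127, Prm2 20958, Tnp2 4340, Tnp1 2567, Prm1 1727 and Prm3 141. Antisense reads of these mRNAs numbered 146, of which 111 were on Prm1 and 26 on Prm2.

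The sperm came from the cauda epididymis of wild type C57BL/6J male mice, and somatic cells had been lysed before RNA extraction. The mice were 8 weeks old at the start and were gavaged for 4 weeks with corn oil alone (control) or with dicyclohexyl phthalate (DCHP), a plasticizer, in corn oil. Sperm RNA was made into libraries either directly (traditional RNA-seq, 5 control and 5 DCHP libraries) or by PANDORA-seq (4 control and 5 DCHP libraries). In PANDORA-seq, RNA of 15 to 50 nt is cut from a gel and first treated with T4 polynucleotide kinase and the demethylase AlkB. The study describes the gel cut for PANDORA-seq and does not state it for the traditional libraries. The kinase repairs RNA ends that adapters cannot be ligated to, and AlkB removes base methylations that stop reverse transcriptase. The treatment field of the labels reads the same for every sample, so the control status comes from the sample titles. The study speaks of replicate mice and of sperm RNA given to both methods, but neither it nor the labels tie a library to a mouse. Which PANDORA-seq and traditional libraries share a mouse is therefore unknown, and p-values measure the spread between these libraries.

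Libraries held 21588335 to 56506344 reads of 15 to 45 nt. Reads of protein-coding genes were 6.14 to 7.55% of a PANDORA-seq library and 1.22 to 2.63% of a traditional library. Reads carry no molecular identifiers, so every interval covers the spread between libraries or counting error and not amplification. The libraries hold fragments of 45 nt at most, so intact mRNA was not measured.

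A spermatid replaces nearly all of its histones. Transition proteins are deposited on the DNA first and are then exchanged for protamines, small arginine-rich proteins that pack the sperm nucleus into a near-crystalline state. Odf1 protein belongs to the outer dense fibers that run along the axoneme of the sperm tail, and Smcp protein lies on the mitochondria wrapped around the tail midpiece. The mRNAs of these genes are made while the spermatid can still transcribe, are kept silent as protein-bound particles, and are translated days later. Mature sperm no longer transcribe and translate little, and they carry residual RNA, much of it in pieces.

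The most abundant read that lies wholly in the coding sequence of each mRNA is given next, to show where single fragments of each gene start and stop. The read is in capitals, and the 5 mRNA bases on each side are in lower case. Coordinates are GRCm38 (mm10), and the sequence and annotation are those of GENCODE M21. Only for Prm3 and Odf1 was this read also the most abundant read of the gene anywhere. The Prm1 and Tnp2 reads cross the exon junction, so their genomic ranges include the intron, and the Prm1 read reaches only 2 bases into the second exon.
Prm1, chr16:10796532-10796646, minus strand: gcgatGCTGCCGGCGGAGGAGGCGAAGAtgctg
Prm2, chr16:10791774-10791806, minus strand: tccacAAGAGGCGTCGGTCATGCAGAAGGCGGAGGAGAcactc
Prm3, chr16:10790782-10790808, minus strand: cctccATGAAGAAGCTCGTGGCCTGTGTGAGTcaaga
Tnp1, chr1:73015778-73015800, minus strand: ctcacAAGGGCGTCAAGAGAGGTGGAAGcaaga
Tnp2, chr16:10788086-10788280, minus strand: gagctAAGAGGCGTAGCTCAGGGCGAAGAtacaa
Smcp, chr3:92584170-92584199, minus strand: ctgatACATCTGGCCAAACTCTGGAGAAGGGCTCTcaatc
Odf1, chr15:38226188-38226226, plus strand: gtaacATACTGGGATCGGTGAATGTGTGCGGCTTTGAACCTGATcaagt

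Of these 7 reads, 6 start at an A that follows a C or a T, and 5 are followed by a C. The Odf1 read was seen 2517 times in 16 libraries, with group means of 6.71 reads per 1000000 total reads of a library (RPM) in PANDORA-seq control and 7.09 in PANDORA-seq DCHP, and of 0.0711 and 0.113 in traditional control and DCHP. The Smcp read was seen 1135 times, at 2.95 and 2.99 RPM in PANDORA-seq control and DCHP and at 0.180 and 0.146 RPM in the traditional groups. The Prm2 read was the only one of the 7 found in all 19 libraries, 535 times, at 1.24 and 1.498 RPM in the PANDORA-seq groups and at 0.128 and 0.171 RPM in the traditional groups. Each of these 3 reads was thus mainly a PANDORA-seq read. The remaining 4 were seen 11 (Prm1), 20 (Prm3), 28 (Tnp1) and 103 (Tnp2) times. The most abundant Smcp read of all lies in the 3′ UTR, at positions 767 to 797 of the mRNA, and was a traditional read: 2103 copies, at 5.74 and 5.39 RPM in traditional control and DCHP and at 0.162 and 0.173 RPM in PANDORA-seq. Those of Prm2 (positions 534 to 559), Tnp1 (274 to 310) and Tnp2 (466 to 507) also lie in 3′ UTRs, and that of Prm1 (91 to 115) lies in the 5′ UTR.

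Tnp2, Prm3, Prm2 and Prm1 form a cluster on chromosome 16 and lie within chr16:10787936-10796886 on the minus strand. In the reference transcripts used here, each of the 7 mRNAs is short, from 410 nt for Prm3 to 1105 nt for Odf1, and each has 1 intron except Prm3, which has none. Positions are counted from the 5′ end of 1 reference transcript per gene, the only annotated one for Prm3, Tnp1, Tnp2 and Odf1. On it the coding sequence has 156 nt in Prm1, 324 in Prm2, 306 in Prm3, 168 in Tnp1, 354 in Tnp2, 432 in Smcp and 747 in Odf1.

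Among the chromatin mRNAs, each transition protein gene had fewer reads than Prm2 in every library and, over all libraries, more than Prm1 and Prm3. Tnp1 encodes the transition protein that appears in large amount on spermatid chromatin. It had 3.62, 3.33, 3.93 and 5.54 RPM in the 4 PANDORA-seq control libraries and 3.91, 4.35, 3.87, 4.16 and 7.89 RPM in the 5 PANDORA-seq DCHP libraries. In traditional libraries it had 1.56, 2.17, 2.74, 1.94 and 4.63 RPM (control) and 2.42, 3.01, 2.79, 2.63 and 3.03 RPM (DCHP). PANDORA-seq DCHP replicate 5 stood above the 4 others of its group, and the 2 exposure groups overlapped within each method. In these bulk samples, fewer cells carrying an mRNA and less of it per cell cannot be told apart.

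Tnp2 encodes the second, zinc-binding transition protein. Its reads numbered 4.48, 4.54, 4.09 and 5.08 RPM in PANDORA-seq control and 6.61, 5.04, 4.86, 4.89 and 6.44 RPM in PANDORA-seq DCHP. Traditional libraries had 4.20, 6.58, 7.17, 5.17 and 8.89 RPM (control) and 7.43, 9.82, 6.57, 7.15 and 8.01 RPM (DCHP). The ratio of the transition protein mRNAs, which does not depend on the library size, did not overlap between the methods. Tnp2 to Tnp1 per length was 0.899 ± 0.157 (SD, n = 4) in PANDORA-seq control and 2.04 ± 0.32 (SD, n = 5) in traditional control, with 0.962 ± 0.247 and 2.22 ± 0.29 in the DCHP groups (SD, n = 5 each). The highest PANDORA-seq ratio was 1.34 and the lowest traditional ratio 1.51.

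Prm2 encodes the protamine that is made as a precursor and trimmed on the chromatin, and it was the most abundant of the 5 chromatin mRNAs in fragments. Its PANDORA-seq values were 41.8, 29.6, 24.3 and 34.8 RPM (control) and 41.6, 24.7, 20.02, 33.2 and 59.4 RPM (DCHP). The traditional values were 17.6, 18.6, 19.5, 21.7 and 34.98 RPM (control) and 29.2, 23.2, 17.7, 26.5 and 42.7 RPM (DCHP). The spread within PANDORA-seq DCHP, from 20.02 to 59.4 RPM, covered the whole control group. Prm1, the other major protamine gene, had 1.82 to 2.69 RPM (control) and 1.71 to 3.54 RPM (DCHP) in PANDORA-seq, and 1.53 to 2.81 RPM (control) and 2.27 to 3.93 RPM (DCHP) in traditional libraries. Per nucleotide of mRNA, Prm2 fragments were more frequent than Prm1 fragments in every library, by 11.1-fold ± 1.8 (SD, n = 4) in PANDORA-seq control and by 8.62-fold ± 1.61 (SD, n = 5) in traditional control.

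Prm3, a protamine-like gene of the cluster whose protein is acidic, was nearly absent. It had 6 to 24 reads per PANDORA-seq library and 1 to 10 per traditional library, or 0.204 to 0.507 RPM and 0.0192 to 0.232 RPM. In 7 of the 10 traditional libraries it had no more than 3 reads, the limit that a count of 0 allows. A further 17 Prm3 reads also matched another gene and were not counted.

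The tail mRNAs supplied most of the fragments. Odf1 had 82.7, 74.0, 87.6 and 107.2 RPM in PANDORA-seq control and 97.7, 82.5, 67.1, 98.7 and 112.9 RPM in PANDORA-seq DCHP. In traditional libraries it had 21.7, 27.6, 33.8, 28.0 and 37.6 RPM (control) and 39.5, 26.9, 35.8, 43.1 and 42.9 RPM (DCHP). On this scale of total reads, every PANDORA-seq library lay above every traditional one. Most genes tested were higher in PANDORA-seq on this scale. In the edgeR fits given below, the median gene was higher by 1.69 on the log2 scale in control and 1.95 in DCHP libraries, and Odf1 by 1.56 and 1.29.

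For Smcp the methods stood in the opposite order on the same scale. The values were 43.5, 49.5, 68.7 and 67.9 RPM in PANDORA-seq control and 77.8, 53.5, 62.4, 78.0 and 70.9 RPM in PANDORA-seq DCHP. Traditional libraries had 112.0, 145.3, 164.0, 145.2 and 237.9 RPM (control) and 194.2, 122.3, 216.1, 171.9 and 106.9 RPM (DCHP). No PANDORA-seq library reached the lowest traditional one. The Smcp to Odf1 ratio per length was 0.838 ± 0.137 (SD, n = 4) in PANDORA-seq control against 6.88 ± 0.72 (SD, n = 5) in traditional control, and 0.974 ± 0.159 against 5.64 ± 1.67 in the DCHP groups (SD, n = 5 each).

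**Figure D1:**
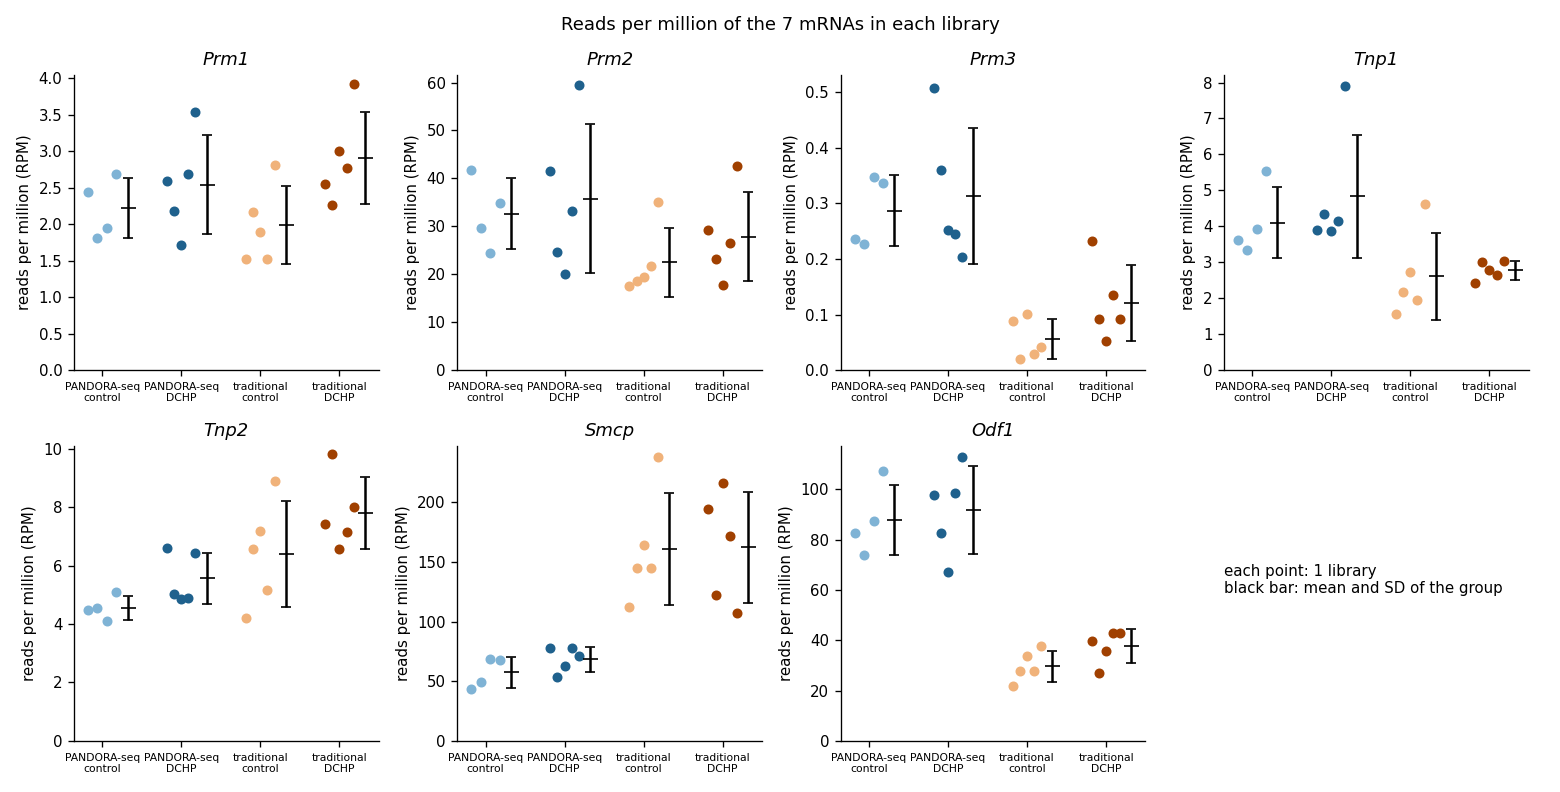
RPM on total reads of each of the 7 mRNAs in each of the 19 libraries, 1 panel per gene with its own linear axis; each point is 1 library, and the black bars give the mean and SD of the group. Smcp points of the traditional libraries (106.9 to 237.9 RPM) lie above all its PANDORA-seq points (43.5 to 78.0 RPM), Odf1 shows the reverse, and the control and DCHP points overlap for every gene within each method.

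The plot of RPM by library shows both patterns, the reversed order of the methods for Smcp and Odf1 and the overlap of the exposure groups. Of all reads of the 7 mRNAs, Odf1 supplied 44.9% and Smcp 31.9% in PANDORA-seq, whereas Smcp supplied 69.8% and Odf1 14.5% in traditional libraries. Prm2 supplied 17.02% and 10.5%, and each of the 4 others supplied less than Prm2 in both methods.

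Set against each other per length, as RPM per kilobase of mRNA (RPKM), Odf1 (81.5 ± 13.8), Smcp (73.8 ± 14.3) and Prm2 (55.4 ± 19.4) led in PANDORA-seq (SD, n = 9), and their ranges overlapped. Tnp1 (10.3 ± 3.2) and Tnp2 (9.23 ± 1.55) followed and overlapped each other, and Prm1 (5.12 ± 1.21) reached 7.54 in its highest library, just above the 7.39 of the lowest Tnp2 library. Prm3 was last at 0.735 ± 0.235. In traditional libraries (SD, n = 10) the order was Smcp (188 ± 51), Prm2 (40.5 ± 13.4), Odf1 (30.5 ± 6.7), Tnp2 (12.8 ± 3.0), Tnp1 (6.16 ± 1.90), Prm1 (5.21 ± 1.56) and Prm3 (0.215 ± 0.152). There the ranges of Prm2 and Odf1 overlapped, as did those of Tnp2, Tnp1 and Prm1, while Smcp stayed above every other member in every library.

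Among all protein-coding genes with a read, ranked by mean RPKM, 6 of the 7 mRNAs were near the top. In PANDORA-seq, Odf1 was at rank 46, Smcp at 49, Prm2 at 54, Tnp1 at 142, Tnp2 at 160 and Prm1 at 339 of 18317 genes, and Prm3 was at 3938. In traditional libraries, Smcp was at rank 25, Prm2 at 29, Odf1 at 34, Tnp2 at 51, Tnp1 at 85 and Prm1 at 103 of 17577 genes, and Prm3 was at 4561. By RPM alone, without regard to length, Smcp was the third gene of all in traditional libraries. There Odf1 was at rank 22, Prm2 at 35, Tnp2 at 198, Tnp1 at 750, Prm1 at 861 and Prm3 at 12338. In PANDORA-seq the RPM ranks were 14 for Odf1, 23 for Smcp, 69 for Prm2, 1501 for Tnp2, 1778 for Tnp1, 3680 for Prm1 and 11005 for Prm3. Without the division by length, Tnp2, Tnp1 and Prm1 thus stood much lower. The 7 mRNAs together made up 0.289% ± 0.053 (SD, n = 9) of the protein-coding reads of a PANDORA-seq library and 1.52% ± 0.56 (SD, n = 10) of those of a traditional library.

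The fragments were not spread evenly along the mRNAs but piled up in a few stretches, and for 3 genes the region of highest coverage differed between the methods. On Smcp, the highest coverage in traditional libraries was at position 29, in the 5′ UTR, where 46.6% of its reads lay. In PANDORA-seq it was at position 535 in the coding sequence, with 25.7% of the reads. On Prm2 the highest point in PANDORA-seq was position 553 in the 3′ UTR (40.1% of reads), and in traditional libraries position 310 in the coding sequence (21.3%). Tnp2 showed the same kind of shift, from position 479 in the 3′ UTR in PANDORA-seq (53.0%) to position 366 in the coding sequence in traditional libraries (39.2%).

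The highest point of Odf1 was the same in both methods, position 577 in the coding sequence, but 32.3% of the PANDORA-seq reads and 13.9% of the traditional reads covered it. The Odf1 read printed above covers this point. In traditional DCHP libraries alone the highest point of Odf1 was position 152, in the 5′ UTR. Prm1 peaked in the 5′ UTR in both methods (positions 114 and 115), Tnp1 in the 3′ UTR in both (positions 223 and 280) and Prm3 in the coding sequence in both (positions 119 and 120). On Prm3 this 1 stretch held 90.7% of its PANDORA-seq reads and 75.8% of its 33 traditional reads. For all but Prm3, which was read at 70.7% of positions over all libraries, reads covered 83.6% (Prm1) to 100% (Tnp2) of the mRNA.

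**Figure D2:**
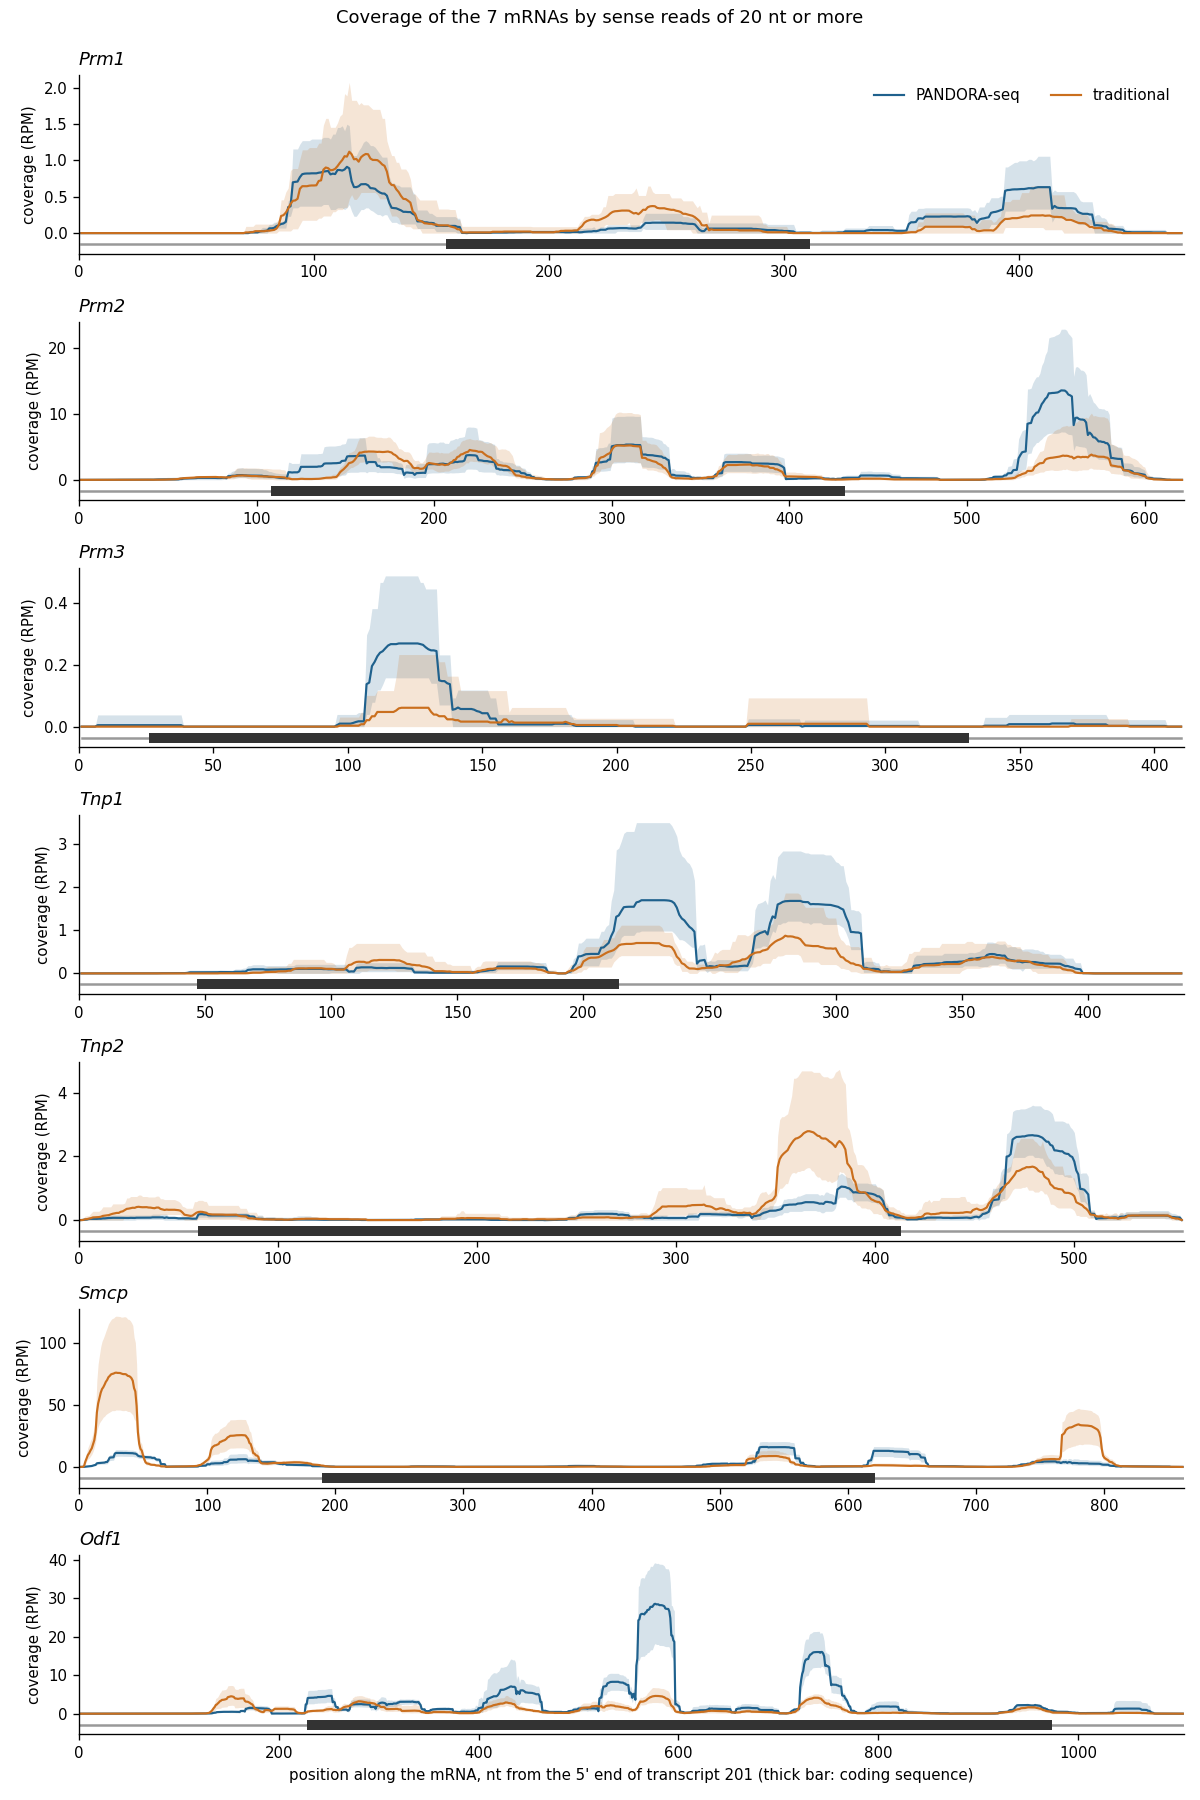
Coverage along each mRNA, in RPM covering each position, against the position in nt from the 5′ end of the reference transcript; lines are the mean over the libraries of a method, shading the range over its libraries, and the thick bar under each panel is the coding sequence. Traditional libraries peak in the Smcp 5′ UTR at 75.8 RPM and PANDORA-seq libraries in the Odf1 coding sequence at 28.6 RPM, and on Prm2 and Tnp2 the PANDORA-seq maximum lies in the 3′ UTR.

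The coverage plot shows these stretches with their spread over libraries. The profiles of control and DCHP libraries were almost superposable: over the positions of an mRNA, Pearson's r between the 2 group means was 0.973 to 0.998 in PANDORA-seq for the 7 mRNAs and 0.942 to 0.996 in traditional libraries for all but Prm3 (0.815, 33 reads). Between the methods, r was 0.381 and 0.394 for Smcp (control and DCHP), 0.552 to 0.726 for Prm2, Tnp2 and Odf1, and 0.797 to 0.918 for Prm1, Prm3 and Tnp1. Neighbouring positions share reads, so these values are descriptions.

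Split by region, the coding sequence held most Odf1 reads, 95.7% ± 0.8 in PANDORA-seq (SD, n = 9) and 78.6% ± 5.0 in traditional libraries (SD, n = 10), where 19.9% ± 5.1 lay in the 5′ UTR. Smcp reads were 34.9% ± 2.5 coding in PANDORA-seq but 7.63% ± 1.78 in traditional libraries, in which 66.7% ± 2.2 lay in the 5′ UTR. Prm2 and Tnp2 went the other way: the coding share was 48.0% ± 7.9 against 73.2% ± 5.2 for Prm2 and 39.3% ± 3.7 against 61.8% ± 5.3 for Tnp2. Tnp1 reads were mainly from the 3′ UTR in both methods, 90.1% ± 4.0 and 80.3% ± 5.1, and none lay in its 5′ UTR. Prm1 had 50.3% ± 12.6 and 61.3% ± 8.2 of its reads in the 5′ UTR.

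The shift of the coding share between methods passed the test for all 5 genes with at least 50 reads in every library, in control and in DCHP libraries alike. Fitted over all such genes with limma (empirical Bayes, Benjamini-Hochberg adjusted p below 0.1), the share of genes called was 44.8% of 466 genes in control and 45.4% of 608 in DCHP libraries. In control libraries PANDORA-seq was higher for Smcp, by 28.6 percentage points (SE 0.7, adjusted p = 5.67e-08), and for Odf1, by 16.5 points (SE 1.8, adjusted p = 0.000409). It was lower for Prm2 (-26.3 points, SE 5.2, adjusted p = 0.00464), Tnp2 (-22.4 points, SE 2.3, adjusted p = 0.000303) and Tnp1 (-10.4 points, SE 3.6, adjusted p = 0.0488). The Tnp1 value missed the threshold without PANDORA-seq control replicate 1 (-9.49 points), without PANDORA-seq control replicate 3 (-9.64) or without traditional control replicate 5 (-10.2), and with replicate numbers as a block (-10.2). In DCHP libraries the differences were 26.0 points for Smcp, 17.9 for Odf1, -24.5 for Prm2, -22.7 for Tnp2 and -9.43 for Tnp1, each called. The median over all genes was -1.05 points in control and -0.54 in DCHP libraries.

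Where an mRNA has a second annotated form, few fragments matched that form alone. Many matched both forms and could be assigned to neither: a median over libraries of 67.7% of Smcp reads, 52.3% of Prm2 reads and 57.7% of Prm1 reads in PANDORA-seq, and 32.96%, 73.4% and 58.9% in traditional libraries. The second form of Smcp has another first exon, and 2 Smcp reads matched it alone, both in traditional control replicate 3. Reads matching the reference form of Smcp alone were 62.2 to 70.4% of Smcp reads in traditional libraries and 28.1 to 36.2% in PANDORA-seq. These shares nearly equal the Smcp 5′ UTR shares of the same libraries, so they restate the split by region and show no separate difference in form. No read matched the second form of Prm1 alone. The second form of Prm2, which has a longer 5′ UTR and a shorter 3′ UTR, had 240 reads of its own in traditional libraries (a median of 3.30% of Prm2 reads) and 31 in PANDORA-seq (0.210%).

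Reads that crossed an exon junction with at least 5 bases on each side were found for 5 of the 6 genes with an intron. Tnp2 had 266 such reads in PANDORA-seq (14.8% of its reads) and 200 in traditional libraries (7.86%). The other counts were 362 and 572 for Prm2, 533 and 1230 for Smcp, 431 and 308 for Odf1, and 1 and 36 for Prm1. No Tnp1 read crossed its junction after position 185 in this way, and position 190 was covered by no read in any library, although mean coverage was 0.161 RPM at position 175 and 0.422 RPM at position 200 in PANDORA-seq. Intron reads were not analysed here.

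The ends of the PANDORA-seq reads followed a pattern that was weaker, or not seen, in traditional reads. In PANDORA-seq, 57.3% of the reads of the 7 mRNAs started at an A that follows a C or a U in the mRNA (50.4 to 63.4% in the 9 libraries), whereas such steps make up 11.8% of the mRNAs. In traditional libraries the share was 18.6% (16.5 to 19.6% in 10 libraries), above that of the mRNAs in each library, with Smcp supplying most of these reads. At the other end, 55.2% of PANDORA-seq reads stopped just before a C (51.6 to 59.3%), against 25.5% of traditional reads (23.0 to 30.9%) and 27.9% of all steps in the mRNAs. The 2 methods did not overlap in either share. Read ends were examined for these 7 mRNAs only, so whether the reads of other mRNAs show the same pattern was not tested.

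In PANDORA-seq both shares were above those of the gene's own mRNA in each of the 7 genes. The start pattern was highest in Tnp2 (64.6% of reads), Prm2 (63.8%) and Smcp (60.1%), followed by Odf1 (53.8%), Prm3 (47.2% of 108 reads), Prm1 (41.2%) and Tnp1 (37.6%). In traditional libraries the genes lay between 9.62% (Prm1) and 22.7% (Prm2), and Prm1 and Tnp2 were not above their mRNAs (9.62% against 12.6% of steps, and 12.3% against 12.5%). For the end pattern, the PANDORA-seq shares ran from 48.02% (Tnp2) over 68.3% (Prm2) to 82.4% (Prm3), and the traditional ones from 16.8% (Tnp1) to 34.8% (Prm1). Of the traditional shares, those of Odf1 (33.3% against 25.8% of steps in its mRNA, and above it in each of 10 libraries), Prm1 (34.8% against 28.9%) and Prm2 (33.9% against 30.3%) were above the mRNA, and those of Tnp2 (21.8% against 31.7%), Smcp (22.8% against 29.7%), Tnp1 (16.8% against 22.5%) and Prm3 (21.2% of 33 reads against 25.4%) were below it. Counted once per distinct end position instead of once per read, PANDORA-seq had 18.3% for starts and 33.1% for ends, against 12.2% and 28.99% in traditional libraries. The pattern thus lay mainly in how often single positions were used.

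**Figure D3:**
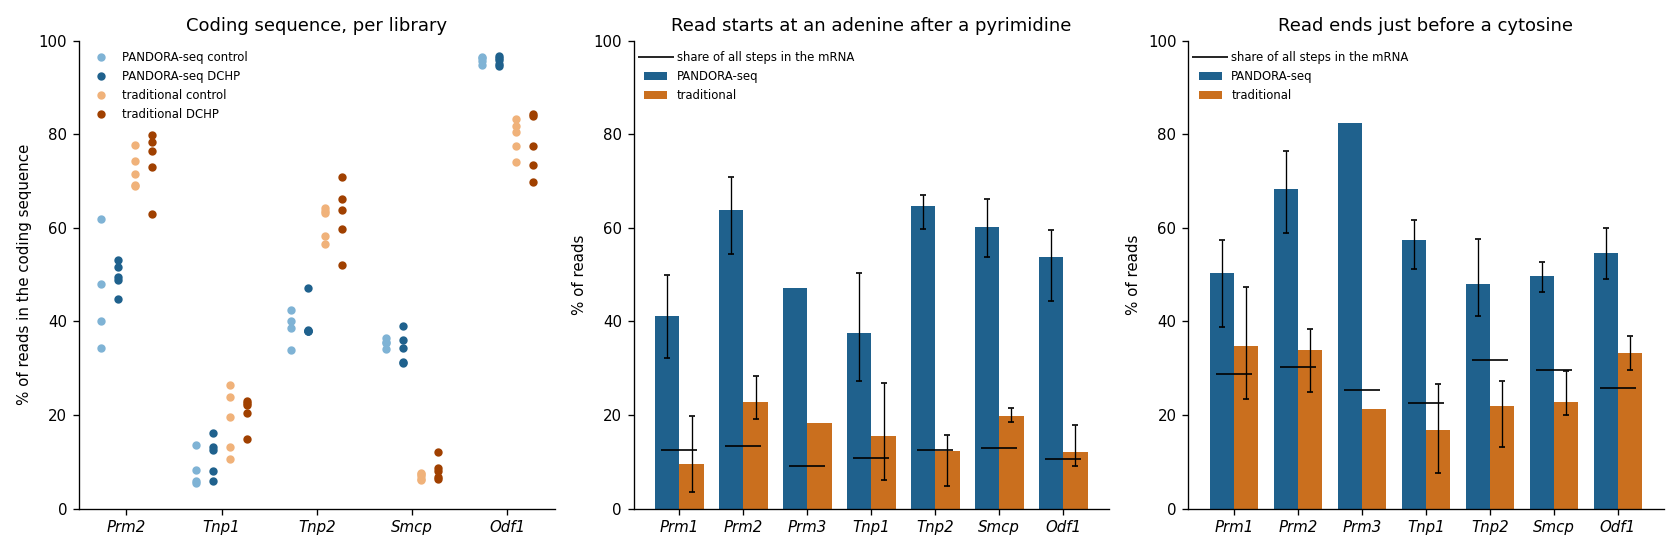
Left, percent of reads in the coding sequence in each library for the 5 genes with at least 50 reads in every library (points are libraries); middle and right, percent of reads that start at an adenine after a pyrimidine and that end just before a cytosine (bars pool the reads of a method, error bars give the range over its libraries, not drawn for Prm3, and the black ticks give the share of all steps in the mRNA). The PANDORA-seq bars stand above the ticks in every gene, and the mean coding share is higher in PANDORA-seq for Smcp and Odf1 and lower for Prm2, Tnp1 and Tnp2.

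Many reads shared single end positions. The 3′ end at position 596 of Odf1, that of the read printed above, was the end of 18.3% of its PANDORA-seq reads, while no position took more than 2.45% of its traditional 3′ ends. On Smcp, 12.9% of PANDORA-seq reads ended at position 558, again the end of the printed read, and 12.7% of traditional reads ended at position 45. On Tnp2, 19.04% of PANDORA-seq reads started at position 466 and 12.7% of traditional reads at position 351. The plot of end shares gives the start and end pattern by gene.

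PANDORA-seq reads were longer for 6 of the 7 mRNAs. Prm3, with few reads, went the other way (30.4 nt in 108 PANDORA-seq reads and 31.7 nt in 33 traditional reads). Over the 7 mRNAs, the mean length was 33.8 nt in PANDORA-seq and 31.1 nt in traditional libraries, and reads of 40 to 45 nt were 22.4% and 9.81%. Smcp showed the sharpest contrast: 40.3% of its traditional reads were of 30 to 34 nt, with 31 nt the commonest length (10.3%), and 8.22% had 40 nt or more. In PANDORA-seq 30.6% of Smcp reads had 40 nt or more. The commonest length of Odf1 was 39 nt in PANDORA-seq (9.66%), the length of the read printed above, and 31 nt in traditional libraries (6.80%). The PANDORA-seq lengths jumped from one nt to the next in each gene, and libraries stop at 45 nt, so longer fragments were not seen.

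**Figure D4:**
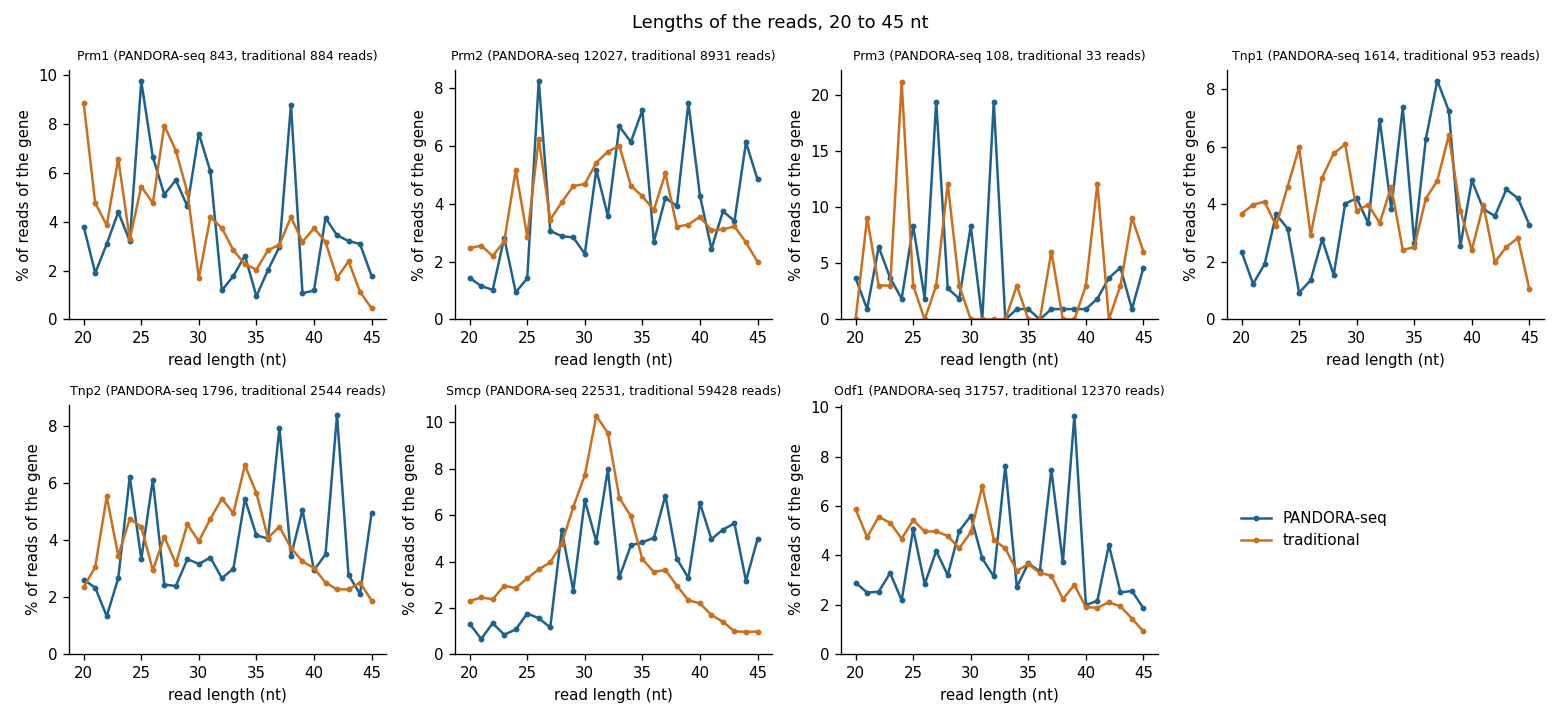
Length distribution of the reads of each mRNA, in percent of the reads of that gene and method, for reads of 20 to 45 nt; the number of reads is in each title. The traditional Smcp curve has 1 broad maximum at 31 nt, while the PANDORA-seq curves are jagged and reach further toward 45 nt.

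The plot of read lengths shows the curves by gene. Mean length was tested with limma over all genes with at least 50 reads in every library, of which 93.7% of 552 genes were called in control and 97.6% of 716 in DCHP libraries, so longer reads in PANDORA-seq were general. The median difference over all genes was 2.79 nt in control and 3.43 nt in DCHP libraries. In control libraries Smcp reads were 3.51 nt longer in PANDORA-seq (SE 0.50, adjusted p = 1.60e-06), Tnp1 reads 2.88 nt (SE 0.60, adjusted p = 0.000137), Odf1 reads 2.61 nt (SE 0.55, adjusted p = 0.000159) and Prm2 reads 1.43 nt (SE 0.62, adjusted p = 0.0357). The Prm2 call was lost without PANDORA-seq control replicate 1 (0.91 nt) or replicate 2 (1.26 nt). Tnp2 did not pass (0.82 nt, SE 0.63, adjusted p = 0.215), but did without PANDORA-seq control replicate 3 (1.26 nt, adjusted p = 0.0690).

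In DCHP libraries each of the 5 was called longer in PANDORA-seq, by 4.10 nt for Smcp, 2.95 for Odf1, 2.47 for Prm2, 2.43 for Tnp1 and 2.23 for Tnp2. Of the 5, Smcp and Tnp1 lay above the median over all genes in control, and Smcp alone in DCHP libraries.

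Tested by read counts, the method divided the 7 mRNAs. With edgeR's quasi-likelihood test on total reads as library size (a call needs an adjusted p under 0.1, after Benjamini and Hochberg, and more than a 2-fold difference), 77.1% of 10859 genes were called in control libraries, 72.6% higher in PANDORA-seq and 4.48% lower. In DCHP libraries 80.4% of 11484 genes were called, 75.3% higher and 5.10% lower. These shares are of genes that passed the count filter, which PANDORA-seq libraries alone could meet. Against that background, and on total reads, Odf1 was called higher in PANDORA-seq, by 2.96-fold in control (log2 fold change 1.56, SE 0.29, adjusted p = 0.000472) and by 2.44-fold in DCHP libraries (1.29, SE 0.21, adjusted p = 3.40e-05). Smcp was called lower, with log2 fold changes of -1.49 in control (SE 0.32, adjusted p = 0.00118) and -1.24 in DCHP libraries (SE 0.23, adjusted p = 0.000112). Prm3 passed the count filter in DCHP libraries alone of these comparisons and was called higher there (1.32, SE 0.48, adjusted p = 0.0188), on 2 to 10 reads in each traditional library. It had at least 10 reads in only 4 DCHP libraries, the fewest the filter allows. They were PANDORA-seq DCHP replicates 1, 2 and 3 (24, 12 and 10 reads) and traditional DCHP replicate 1 (10 reads). Prm3 thus entered the test mainly through the method where it was higher, and its call carries that selection. Without any 1 of these 4 libraries, or with reads of 25 nt or more or sequences with at least 2 reads, it was not tested. The call was lost when reads of several genes were counted (0.84, adjusted p = 0.116), and the value turned to -0.60 with TMM factors and -0.57 with DESeq2.

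The 4 others stayed under the fold threshold. Tnp1 was 0.66 and 0.80 higher in PANDORA-seq on the log2 scale (control, adjusted p = 0.104; DCHP, adjusted p = 0.00532), and Tnp2 was at -0.49 and -0.48 (adjusted p = 0.156 and 0.0325). Prm2 was at 0.54 and 0.36 (adjusted p = 0.127 and 0.257) and Prm1 at 0.17 and -0.19 (adjusted p = 0.641 and 0.468). In all, 1 member was called higher and 1 lower of 6 tested in control, and 2 higher (Odf1 and Prm3) and 1 lower of 7 in DCHP libraries. Prm3 is counted here although it passed the count filter mainly through PANDORA-seq libraries.

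These directions depend on the library size used. A change of library size moves all genes of a library by the same factor. The nearly unchanged place of the members among the genes tested is therefore no check. The median gene was higher in PANDORA-seq by 1.69 on the log2 scale in control and by 1.95 in DCHP libraries, and each member tested lay below it, from the 3.09th percentile (Smcp) to the 44.1st (Odf1) in control and from the 4.39th (Smcp) to the 30.4th (Prm3) in DCHP libraries. A gene could pass the count filter by PANDORA-seq libraries alone, which held more protein-coding reads. When traditional libraries alone were compared, 8793 genes passed it, against 10859 and 11484 here. The genes tested can thus favour those higher in PANDORA-seq, which would raise this median and the share called higher. With no count filter the median was 1.53 in control and 1.69 in DCHP libraries. The place of the members among genes passing in both methods was not tested. With TMM factors, which centre the median gene near 0, no member was called higher and 5 were called lower in each comparison. Of all genes, 2821 of 10859 in control and 4128 of 11484 in DCHP libraries were then called in either direction. Odf1 had a log2 fold change of -0.24 in control and -0.70 in DCHP libraries. With reads on miRNA hairpins as library size, the median moved to 4.04 and 4.43. Then 5 of 6 and 7 of 7 members were called higher, where 10462 of 10859 and 11086 of 11484 genes were called in either direction. Smcp was at 0.83 (adjusted p = 0.175) and 1.22 (adjusted p = 0.0032) there. With other settings not every member lay below the median. In control libraries 5 of 6 did when reads of several genes were counted or without traditional control replicate 5, and 5 of 7 with no count filter. When sequences needed at least 2 reads, 4 of 6 did in control and in DCHP libraries.

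**Figure D5:**
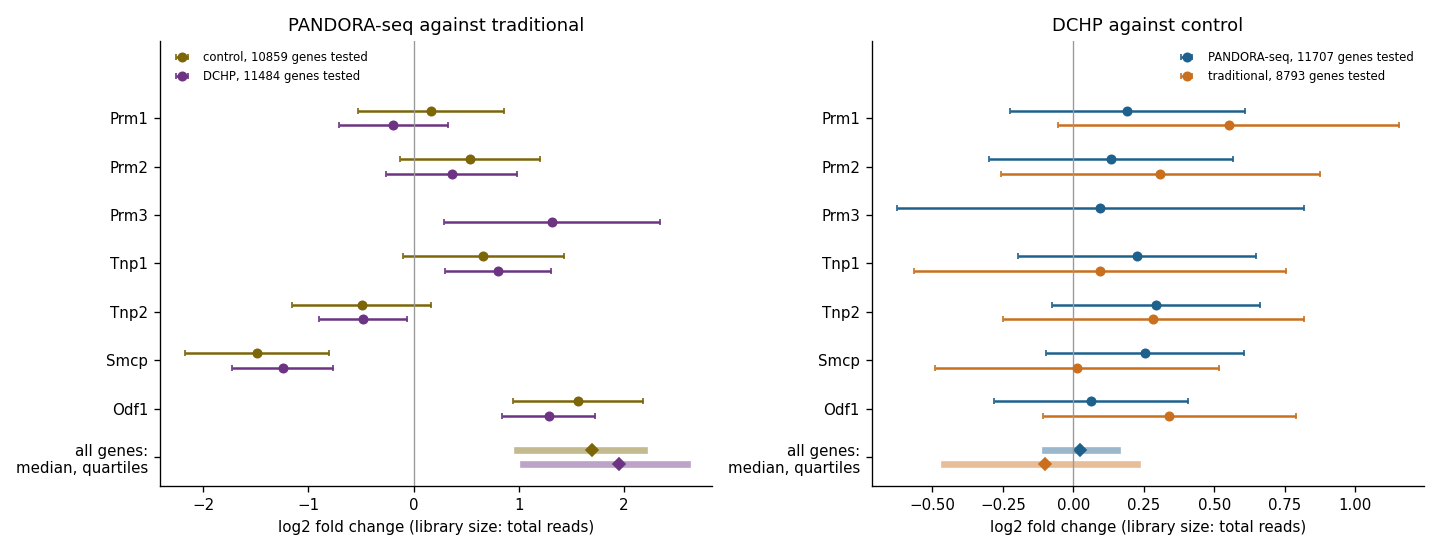
Log2 fold changes of the 7 mRNAs with 95% confidence intervals from edgeR on total reads; left, PANDORA-seq against traditional libraries within control and within DCHP; right, DCHP against control within each method. Diamonds and bars at the bottom give the median and quartiles of all genes tested; on the left each member lies to the left of the median diamond, and on the right each member interval contains 0.

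The plot of fold changes sets the members beside the median gene. Markers of other cells were mostly higher in PANDORA-seq on total reads, as were most genes. In control libraries 3 of 4 epididymal markers tested were called higher, with a median log2 fold change of 2.03, as were 6 of 7 blood markers (3.55) and 2 of 2 Sertoli and Leydig markers (2.90), beside 72.6% of all genes and their median of 1.69. In DCHP libraries the counts were 4 of 4 (2.79), 7 of 8 (3.51) and 3 of 3 (2.56), beside 75.3% and 1.95. A marker could pass the count filter by PANDORA-seq libraries alone, so these counts and medians are partly fixed by the filter. When traditional libraries alone were compared, 3 epididymal, 4 blood and 1 Sertoli and Leydig marker passed it. The summed level of 10 markers of epididymal epithelium was 398 to 849 RPM in PANDORA-seq and 39.8 to 191 RPM in traditional libraries, most of it from Crisp1 (521 RPM in PANDORA-seq control and 89.6 RPM in traditional control), which encodes a protein secreted onto sperm. Lcn8 had no read in 3 of the 4 groups, Lcn9 none in 3 and Lcn5 none in traditional DCHP. For 9 blood markers the sums were 16.0 to 41.6 RPM and 1.11 to 12.4 RPM, and for 7 markers of Sertoli and Leydig cells 86.3 to 151 RPM and 4.30 to 18.8 RPM, nearly all of it from Clu (110 RPM in PANDORA-seq control, where Sox9 came next at 1.03), with Hsd3b1 and Insl3 without a read in PANDORA-seq, Amh without one in traditional control and Insl3 without one in traditional DCHP. Of the blood markers, Lyz2 had the highest mean over the 19 libraries (4.88 RPM, against 4.74 for Hbb-bs, which was the higher of the pair in both PANDORA-seq groups), and S100a9 had no read in PANDORA-seq control. Their part in the results between methods was not tested.

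DCHP exposure made no difference that passed the test for any of the 7 mRNAs. In PANDORA-seq, edgeR called 0% of 11707 genes (275 genes had an unadjusted p below 0.05, and DESeq2 called 0). In traditional libraries it called 0% of 8793 genes (400 with an unadjusted p below 0.05, and DESeq2 called 0). The members' log2 fold changes of DCHP against control were 0.29 for Tnp2, 0.25 for Smcp, 0.23 for Tnp1, 0.19 for Prm1, 0.14 for Prm2, 0.10 for Prm3 and 0.06 for Odf1 in PANDORA-seq (adjusted p = 0.9998 for each), where the median gene was at 0.02. In traditional libraries they were 0.55 for Prm1 (adjusted p = 0.909), 0.34 for Odf1 (0.909), 0.31 for Prm2 (0.922), 0.28 for Tnp2 (0.925), 0.09 for Tnp1 (0.980) and 0.01 for Smcp (0.995), where the median gene was at -0.10. Prm3 had too few reads there.

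All 13 of these values were above 0 and above the median of their comparison, and none was called. They are not 13 independent values, since most members were read in both methods and, Prm3 aside, varied together across libraries. The largest, Prm1 in traditional libraries, had a 95% confidence interval from -0.05 to 1.15, and the narrowest in PANDORA-seq, that of Odf1, ran from -0.28 to 0.41. PANDORA-seq DCHP replicate 5 carried part of the PANDORA-seq values: without it, Prm2 was at -0.13, Tnp1 at -0.03 and Odf1 at -0.02, and without PANDORA-seq control replicate 2, Odf1 was at -0.01. Prm3 was at -0.18 without PANDORA-seq DCHP replicate 1. In traditional libraries Smcp was at -0.11 without DCHP replicate 3, the lowest of 6 such fits below 0, and Tnp1 at -0.044 without control replicate 1. In some fits members also fell below the median gene. The most were 3 of 7 in PANDORA-seq, without DCHP replicate 5, and 2 of 6 in traditional libraries, without control replicate 3. A missed threshold does not show that the groups are alike, and a change under 2-fold could not be called by this rule whatever its p. The 3 epididymal markers tested in traditional libraries had a median log2 fold change of -0.86 between DCHP and control (Crisp1 at 89.6 RPM in control and 65.2 in DCHP), and 4 tested in PANDORA-seq had -0.04, none called. Blood markers had a median of 0.27 in PANDORA-seq (8 tested, 1 with an unadjusted p below 0.05, none called), within the range of the members there, and -0.15 in traditional libraries (4 tested). Sertoli and Leydig markers had 0.09 (3 tested) and 0.10 (1 tested). Their part in the members' values was not tested.

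The difference of the exposure effect between the methods was called for 0% of 8321 genes by edgeR (366 with an unadjusted p below 0.05; DESeq2 was not run for it). It was -0.36 for Prm1, -0.28 for Odf1, -0.18 for Prm2, 0.24 for Smcp, 0.14 for Tnp1 and 0.01 for Tnp2 on the log2 scale, with adjusted p of 0.997 to 0.9996. The signs of Tnp1 and Tnp2 turned with the replicate block and when some single libraries were left out, and that of Prm2 turned with miRNA hairpin reads as library size and without traditional DCHP replicate 5, so no direction is read from these values.

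Exposure left lengths and regions under the threshold as well. With limma, mean read length was called for 0% of 3699 genes in PANDORA-seq (138 with an unadjusted p below 0.05) and 0% of 641 in traditional libraries (24). The coding share was called for 0% of 3243 genes (156) and 0% of 561 (26). Prm1 and Prm3 had too few reads for these tests. Of the 5 members tested, Tnp2 had the largest length difference, reads of 34.1 ± 0.8 nt in PANDORA-seq DCHP (SD, n = 5) against 32.5 ± 1.3 nt in control (SD, n = 4; difference 1.65 nt, SE 0.69, adjusted p = 0.817), where the median over all genes was 0.56 nt. Without PANDORA-seq DCHP replicate 3 the difference was 1.97 nt and passed (adjusted p = 0.0787), as did 146 genes in all. The 4 other members tested differed by 0.26 nt (Tnp1) to 0.96 nt (Prm2) in PANDORA-seq and by -0.08 nt (Prm2) to 0.71 nt (Tnp1) in traditional libraries, where the median gene was at 0.02 nt, and their coding shares by -1.60 points (Odf1, traditional) to 3.57 points (Prm2, PANDORA-seq).

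Other genes of spermatid differentiation were read from lists chosen for their known roles. Of 12 listed symbols of spermatid chromatin genes, which include more than 1 name for some genes, 8 were in the annotation and 6 were tested. In control libraries 2 of the 6 were called higher in PANDORA-seq and 2 lower, beside 72.6% and 4.48% of all genes. Their median log2 fold change was 0.60, below the 1.69 of all genes. In DCHP libraries 1 was called higher and 2 lower, beside 75.3% and 5.1% of all genes, with a median of 0.20 against 1.95. By the mean over the 19 libraries, the list's most abundant genes were Chd5, a chromatin remodeller (20.7 RPM in traditional control and 6.04 in PANDORA-seq control), Tssk6, a kinase needed for histone removal (4.29 and 8.64 RPM), and Brdt, which binds acetylated histones (0.327 and 0.504 RPM), although in each group a gene lower in that order was above Brdt. On total reads and in control libraries, Chd5, at a log2 fold change of -1.78 (adjusted p = 0.000267), thus leaned the way of Smcp, and Tssk6, at 1.01 (adjusted p = 0.00810), the way of Odf1. Both lay below the 1.69 of all genes, as Smcp and Odf1 did.

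Of 22 tail and sheath genes, 21 were tested, and 5 were called higher and 0 lower in control (5 and 1 in DCHP libraries), with medians of 0.47 and 0.16. Of all genes, 72.6% were called higher and 4.48% lower in control, and 75.3% and 5.1% in DCHP libraries, at medians of 1.69 and 1.95. Oaz3, a tail gene that also regulates polyamines, had the highest mean over the 19 libraries (38.1 RPM in PANDORA-seq control and 24.2 in traditional control), with Tcp11 (17.6 and 8.76 RPM) and Odf2, another outer dense fiber gene (13.6 and 9 RPM), next by that mean. In the traditional group means Odf2 was the higher of the pair, by less than their SD. Of 10 acrosome genes, 3 were tested in control with 1 called lower (4.48% of all genes), and 6 in DCHP libraries with 2 called lower (5.1% of all genes), at medians of -0.16 and -0.71. Their leading genes, Acrbp, Acr and Zpbp2, had 0.750, 0.962 and 0.420 RPM in traditional control. Of 9 genes of mRNA storage and translation in spermatids, 2 were called higher and 2 lower in each comparison of methods, at medians of 0.14 and -0.10. These counts stand beside 72.6% of all genes called higher and 4.48% lower in control, and 75.3% and 5.1% in DCHP libraries. Ybx2, whose protein packages stored spermatid mRNAs, had 4.91 RPM in traditional control and 1.72 RPM in PANDORA-seq control, Tdrd7 1.37 and 3.10 RPM, and Piwil2 3.14 and 0.388 RPM. No gene of these 4 lists was called by edgeR or DESeq2 between DCHP and control in either method. The list medians of that comparison were -0.07 to 0.19 in PANDORA-seq, where 0 list genes had an unadjusted p below 0.05, and 0.05 to 0.75 in traditional libraries, where 2 had.

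Across the 19 libraries, after the group means were taken out, the genes whose log2 level moved most like the mean of the 7 mRNAs were Sord (Pearson's r 0.928), Akap12 (0.875), Rnf139 (0.847), Pgk2 (0.844) and St6galnac2 (0.844), among 5559 genes with a mean of at least 1 RPM. Pgk2 encodes the phosphoglycerate kinase of spermatogenic cells and Sord a sorbitol dehydrogenase used in sperm metabolism. Each member against the mean of the 6 others gave r of 0.853 for Odf1, 0.753 for Prm1, 0.719 for Tnp1, 0.657 for Tnp2, 0.631 for Prm2 and 0.396 for Smcp, and -0.050 for Prm3 with its few reads. All points share library depth, so these values are descriptions over 19 libraries.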

How the data were processed

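The deposited files, 1 per library, list distinct trimmed reads of 15 to 45 nt with their read counts; these are raw counts per sequence, which the authors did not normalize in these files. The trimming tool is not given in the sources used here, and the submitters' processing notes name only the build mm10. The study's own analysis assigned reads with 1 mismatch allowed and scaled them to miRNA reads.

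Here, reads of at least 20 nt were matched exactly, on the sense strand, to GENCODE M21 transcripts (135654 long transcripts, GRCm38) and left out where they matched 1 of 6113 small RNA transcripts with up to 1 mismatch. That set does not hold nuclear tRNAs or 28S rRNA, and no genome sequence was used, so introns and genome-wide uniqueness were not analysed. Reads matching transcripts of several genes were not counted. Genes with 10 reads in at least 4 libraries of a comparison were tested with edgeR 4.0.16 (R 4.3.3, quasi-likelihood test, total reads as library size, called at an adjusted p under 0.1, after Benjamini and Hochberg, with more than a 2-fold difference). Mean length and coding share, for genes with 50 reads in every library, were tested with limma 3.58.1. The difference between methods in the exposure effect was an interaction term over all 19 libraries. DESeq2 1.42.0, TMM factors, miRNA hairpin reads as library size, no count filter, a minimum of 25 nt, sequences with at least 2 reads, reads of several genes counted for each, a replicate block and leaving out each library were alternatives. The tests of counts and of mean length were first checked on simulated data, and that of the coding share, which used the same fit as mean length, was not.

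The genes and lists were chosen with earlier results of these data known. All 7 genes are named, with the 3 most abundant genes of each spermatid list, the leading gene of marker lists, and the 5 genes most correlated with the members on log2(RPM + 0.1). Marker genes named at 0, and the count of libraries with few Prm3 reads, were picked after their values were seen. The most abundant coding read of each gene is printed, since most of the most abundant reads lie in UTRs.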

Additional observations from a re-analysis of the deposited data

Results flagged for a closer look

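Among 72 groups of 4 or 5 libraries examined for the 7 mRNAs, 3 values lay far from the rest of their group, or 4.17%; chance flags about 1 in 20. Prm2 was at 34.98 RPM in traditional control replicate 5, and the 4 other libraries of that group were between 17.59 and 21.72 RPM. Tnp1 was at 7.89 RPM in PANDORA-seq DCHP replicate 5, with the 4 others between 3.87 and 4.35 RPM. Tnp2 had 47.15% of its 193 reads in the coding sequence in PANDORA-seq DCHP replicate 3, with the 4 others between 37.86 and 38.1%.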

How the results depend on the processing

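Where a direction or count changed, the cause was not tested unless stated. Genes called between DCHP and control in PANDORA-seq numbered 5 with miRNA hairpin reads as library size, 15 with no count filter and 0 to 1 when 1 library was left out, none of them a member. Method calls fell from 8371 to 2821 (TMM), 2925 (DESeq2) and 1781 (sequences with at least 2 reads) in control, and from 9230 to 4128, 4300 and 4122 in DCHP libraries. With at least 200 reads in every library, which leaves fewer genes, length calls were 56 in control and 64 in DCHP, and coding share calls 26 and 34; leaving out 1 library gave 501 to 955 length calls in control (955 without traditional control replicate 5), and 0 to 146 for exposure in PANDORA-seq. Replicate numbers were not taken as pairs, since not every pair correlated over 0.1. Between control and DCHP, 1 of 4 pairs did in PANDORA-seq and 2 of 5 in traditional libraries. Between the methods, where libraries could share a mouse, 0 of 4 did in control and 3 of 5 in DCHP. There DCHP replicates 1, 2 and 5 matched best across the methods, and the main fits did not model such pairs. The replicate block gave 954 length calls in control and put Prm2 at -0.15 and Odf1 at -0.027 for exposure in PANDORA-seq. It also ended the Tnp1 coding share call in control (-10.2 points). Without scaling to total reads, method log2 fold changes turned. With TMM they were, in control and DCHP, -1.30 and -1.62 for Prm2, -1.16 and -1.13 for Tnp1, and -0.24 and -0.70 for Odf1, with -1.65 for Prm1 in control and -0.60 for Prm3 in DCHP; with DESeq2 -1.35 and -1.58, -1.25 and -1.09, -0.30 and -0.65, -1.73 and -0.57. With miRNA hairpin reads they were 1.88 and 2.01 for Tnp2, 0.83 and 1.22 for Smcp, and 2.38 for Prm1 in DCHP, and exposure in traditional libraries put Smcp at -0.017. Sequences with at least 2 reads put Prm1 at -0.56 (method, control) and, for exposure in traditional libraries, Tnp1 at -0.075 and Smcp at -0.015; DESeq2 put Smcp there at -0.0084. Reads of 25 nt or more put Prm3 at -0.089 (exposure, PANDORA-seq) and Prm1 at 0.0031 (method, DCHP). Reads of several genes counted for each ended the Prm3 call (0.84, DCHP). Without the reads over the highest point, a setting chosen after seeing the data that takes more reads from the method in excess there and so is no test, method values in DCHP libraries were 0.092 for Prm1 and -0.11 for Prm2, the calls of Odf1 in DCHP (0.93) and of Smcp in control and DCHP (-0.78 and -0.68) ended, Tnp2 became a call (-1.10 and -1.23), Tnp2 lengths were -2.47 nt in control and -1.12 nt in DCHP, its coding share in DCHP 5.44 points, and the Tnp1 length difference for exposure in PANDORA-seq -0.12 nt. Leaving out 1 library moved exposure values of PANDORA-seq from -0.13 to 0.29 (Prm2), -0.18 to 0.23 (Prm3), -0.026 to 0.41 (Tnp1) and -0.023 to 0.17 (Odf1), those of traditional libraries from -0.044 to 0.40 (Tnp1) and -0.11 to 0.20 (Smcp), and, with no change of sign, Prm1 in PANDORA-seq from 0.038 (without DCHP replicate 5) to 0.31 (without control replicate 4), Prm2 in traditional libraries from 0.10 (without DCHP replicate 5) to 0.52 (without control replicate 5), the others in PANDORA-seq from 0.14 to 0.35 (Smcp) and 0.22 to 0.35 (Tnp2) and in traditional libraries from 0.42 to 0.70 (Prm1), 0.16 to 0.43 (Tnp2) and 0.25 to 0.44 (Odf1), and traditional length differences from -0.24 to 0.12 nt (Prm2), -0.10 to 0.50 nt (Tnp2) and -0.091 to 0.20 nt (Smcp). At 141 reads, Prm3 was not tested for length or region.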
